A study of Drosophila melanogaster with 12 samples.

Results

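The 38 genes described here encode the precursors of neuropeptides and peptide hormones of Drosophila melanogaster. They were taken by name from a table of 14001 genes: 37 matched by the symbol in the table and Orcokinin by its current FlyBase symbol. Expression was measured by RNA sequencing of whole bodies in 4 groups of 3 libraries. Sensitive larvae and sensitive adults came from a strain labelled sensitive, with the treatment label wild type. Resistant larvae and resistant adults came from a strain labelled for resistance to avermectins, which are insecticidal and antiparasitic lactones that open glutamate-gated chloride channels. The larvae were third-instar, and the adults were of no stated age. Sex, rearing, any exposure to the compound before collection, the origin of the strains and further genotype are not given in the sources used here. Nor do they say whether the 3 libraries of a group came from separate cultures, so p-values cover only the spread from library to library, which may be technical in origin.

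Neuropeptides are cut from larger precursor proteins in the secretory pathway, stored in dense-core vesicles and released from neurons or endocrine cells, and most of them act on G protein-coupled receptors. In the fly they govern feeding, water balance, the activity of gut and heart muscle, daily rhythms and the sequence of behaviours by which the animal sheds its old cuticle. Many are made by small groups of cells, so that in RNA of a whole body their transcripts are a small part of the total. In such bulk RNA, fewer cells of a type and less RNA per cell cannot be told apart.

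Levels are in FPKM, fragments per kilobase of transcript scaled to the fragments mapped in the library, which allows levels of different genes to be set side by side. Each library held an estimated 11340000 to 12760000 reads, and 12997 to 13452 genes were above 0. Of 18 neuronal marker genes, none was at 0 in all libraries of a group, and their summed level was 45.3 ± 3.23 FPKM in sensitive and 66.8 ± 14.1 in resistant larvae, and 71.5 ± 19.7 in sensitive and 110.6 ± 25.7 in resistant adults (mean ± SD, n = 3). The markers did not move alike with stage. Syt1 averaged 24.7 FPKM in sensitive and 22.8 in resistant larvae, and 2.20 in sensitive and 3.87 in resistant adults. The mean of log2(FPKM + 1) was larger in adults than in larvae for 15 of the 18 in the sensitive strain and 14 in the resistant strain. Among larval libraries, resistant larva replicate 3 stood apart from its group on the first principal component, at -15.42 where the other 2 resistant libraries were at -40.81 and -34.71 and the sensitive libraries at 24.78 to 36.8.

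Differences are given as log2 differences, that is differences between group means of log2(FPKM + 1), with the standard error after ±. They were tested with limma across all genes that reached 1 FPKM in at least 3 libraries of the comparison, and a gene was called at a Benjamini-Hochberg adjusted p below 0.05. Without further scaling, the median gene was higher in adults than in larvae by 0.62 in the sensitive strain and by 0.28 in the resistant strain, higher in resistant than in sensitive larvae by 0.49, and higher in resistant than in sensitive adults by 0.02. The words rose, fell, higher and lower of a tested gene are therefore kept for genes called in the same direction both without and with median-of-ratios scaling of the libraries. This scaling is meant to centre the typical gene. With it the median gene stood at 0.04, 0.03, 0.02 and -0.11 in the same order, so in adults it was not nearer to 0. A gene called only in the fit without scaling is said to be called without scaling.

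Nplp2, Nplp3 and Nplp4, which encode small secreted neuropeptide-like precursors, exceeded 1000 FPKM in at least 1 library each, and the other 35 genes did not. Their sum outweighed all the rest: the 35 other precursors together reached 153.5 ± 8.21 FPKM in sensitive and 238.9 ± 23.9 in resistant larvae, and 226.1 ± 6.14 in sensitive and 277.2 ± 21.9 in resistant adults (SD, n = 3). Below the 3, CCHa2 was at 52.5, 78.9, 30.7 and 76.8 FPKM on average (larvae of the sensitive and the resistant strain, then adults of each), and 13 genes reached 10 FPKM in the mean of at least 1 group. The median precursor was at 2.66 FPKM in sensitive and 4.03 in resistant larvae, and 4.58 in sensitive and 4.71 in resistant adults. Of the 38 genes, 24 were at 1 FPKM or more in all 12 libraries.

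The genes amn and RYa stayed below 1 FPKM in every library. The precursor gene amn, named amnesiac for a memory mutant, lay between 0.00 and 0.19 FPKM, which is 0 to 8.8 estimated reads a library, and an exon of Hers overlaps it on the opposite strand. RYa, the RYamide precursor, lay between 0.00 and 0.23 FPKM, or 0 to 1 estimated reads. The group mean was below 1 FPKM for 11 genes in sensitive and 5 in resistant larvae, and 9 in sensitive and 3 in resistant adults. In sensitive larvae these were amn, RYa, AstCC, Burs, Pburs, CCAP, Dh44, FMRFa, Gpa2, Ptth and sNPF. In resistant larvae they were amn, RYa, Burs, Pburs and, in a range from 0.00 to 0.48 FPKM, Nplp3. In sensitive adults they were amn, RYa, AstCC, Burs, Pburs, CCAP, Dh44, Eh and Ptth, and in resistant adults amn, RYa and Ptth. At this depth a value of 0 does not show that a gene was silent.

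**Figure D1:**
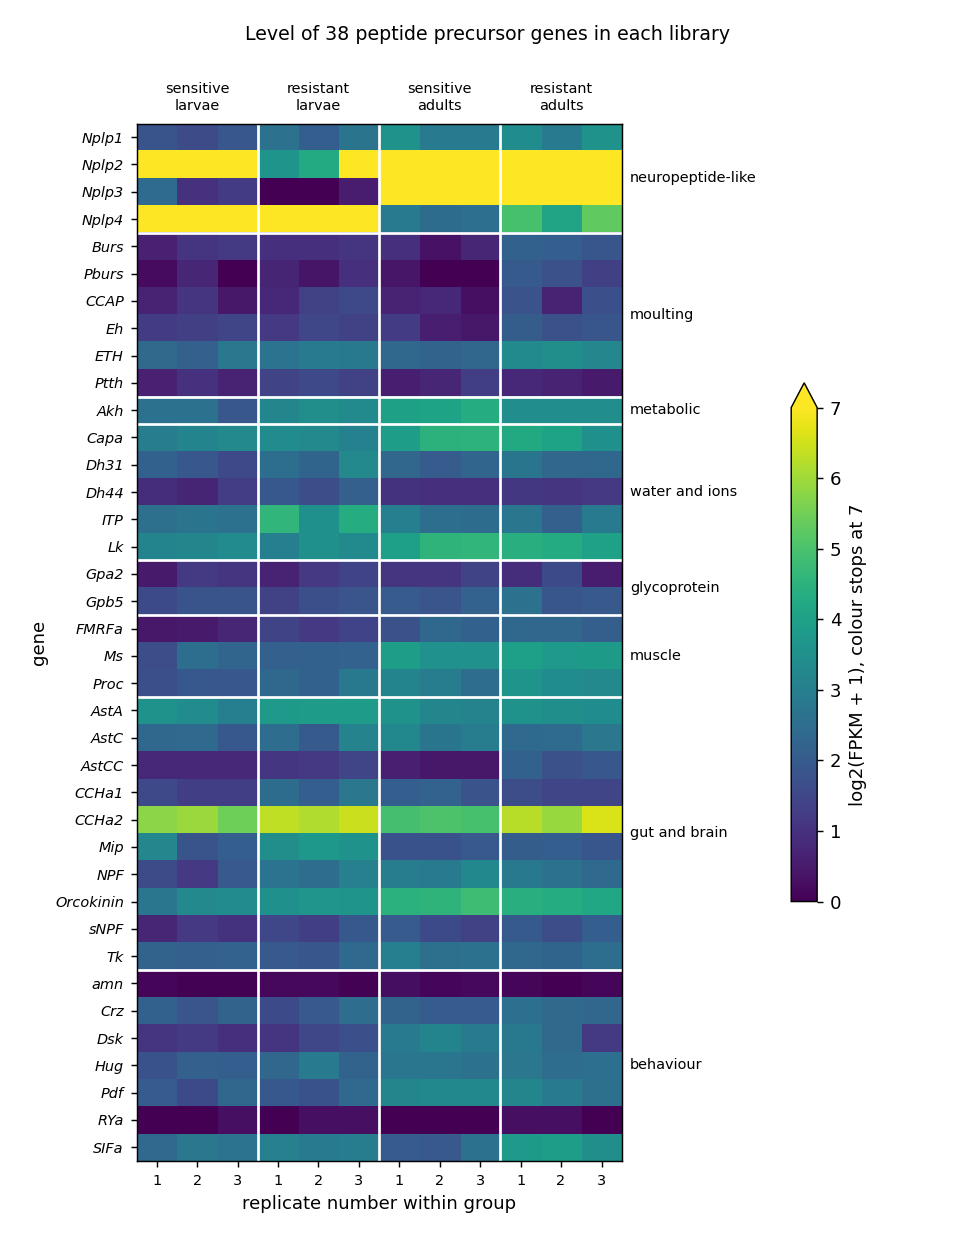
Level of each of the 38 precursor genes (rows, grouped by role) in each of the 12 libraries (columns, grouped by strain and stage), as log2(FPKM + 1), with the colour scale stopped at 7. Nplp2, Nplp3 and Nplp4 carry the highest values, Nplp3 in adults and Nplp4 in larvae, and amn and RYa stay dark throughout.

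Between larva and adult, precursors moved in both directions. In the sensitive strain 30 of the 38 genes could be tested, the 8 others (amn, AstCC, Burs, Pburs, CCAP, Dh44, Ptth and RYa) being too low. Of the 30, 17 were called higher in adults without scaling and 3 lower, where 55.7% and 13.2% of all genes tested were. With and without scaling, 9 rose (Akh, Dsk, FMRFa, Ms, NPF, Nplp1, Nplp3, Orcokinin and Pdf) and 3 fell (CCHa2, Eh and Nplp4), against 29.0% and 13.2% of all genes. In the resistant strain 36 genes were tested, 15 were called higher without scaling and 6 lower, and the shares over all genes were 34.7% and 17.4%. Under both fits 8 rose (Burs, Pburs, FMRFa, Lk, Ms, Nplp3, Pdf and Proc) and 6 fell (CCHa1, Dh44, ITP, Mip, Nplp4 and Ptth), against 28.3% and 17.4%. FMRFa in the sensitive strain and Nplp3, Pburs and Ptth in the resistant strain could be tested only through the stage at which they are high, the other stage being below 1 FPKM throughout, so these counts are descriptions. The median log2 difference of the precursors was 0.66 in the sensitive and 0.45 in the resistant strain. Called alike in both strains were 9 higher and 1 lower without scaling, where 28.3% and 8.69% of genes tested in both were. Under both fits 4 genes rose in adults of both strains, FMRFa, Ms, Nplp3 and Pdf, and 1 fell, Nplp4, against 16.3% and 8.66%. With scaling, 6 further genes were called lower in sensitive adults, AstA (-0.64, adjusted p = 0.01483), Crz (-0.51, adjusted p = 0.02866), ETH (-0.71, adjusted p = 0.01551), ITP (-0.53, adjusted p = 0.0252), Mip (-1.07, adjusted p = 0.02594) and SIFa (-0.95, adjusted p = 0.008718), and AstA was also called lower in resistant adults (-0.62, adjusted p = 0.02373).

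**Figure D2:**
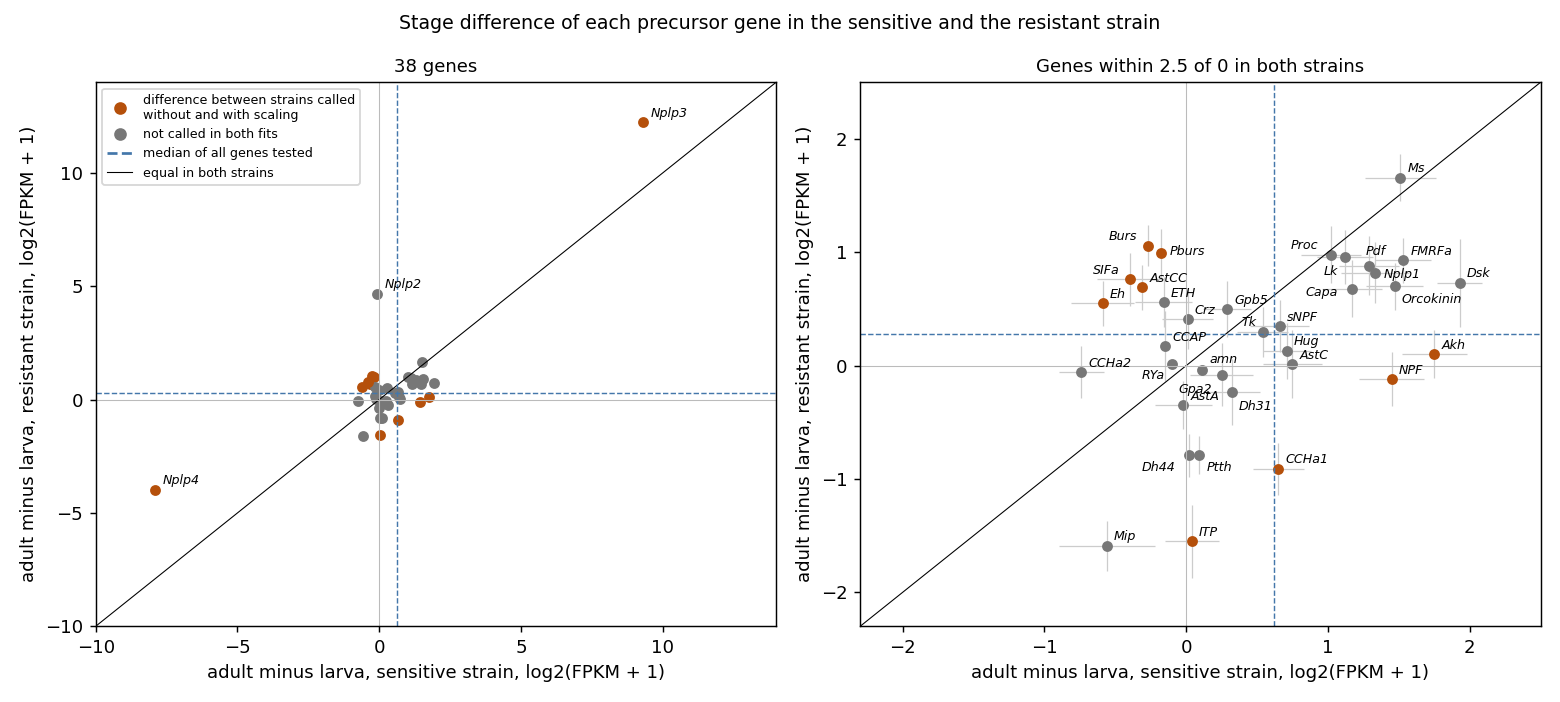
Adult minus larva difference in log2(FPKM + 1) in the sensitive strain (horizontal) and the resistant strain (vertical) for the 38 genes, fitted without the filter on low values; the right panel enlarges the genes within 2.5 of 0 and adds standard errors for tested genes. Nplp3 and Nplp4 lie at opposite corners, and the 11 orange genes, whose stage difference differed between strains under both fits, lie off the diagonal.

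The largest stage differences were those of the neuropeptide-like precursors. Nplp3 (chr3L:16318024-16318690, plus strand, dm6) was at 4.46, 1.01 and 1.35 FPKM in sensitive larvae and at 2149, 1614 and 1952 in sensitive adults. In resistant larvae it was listed at 0.00, 0.00 and 0.48 FPKM, the last being about 3.1 reads, and in resistant adults it was at 5571, 4049 and 7262. Adults of each strain thus lay far above their larvae, with no overlap. It rose by a log2 difference of 9.32 ± 0.34 in the sensitive strain (adjusted p = 6.718e-08) and 12.23 ± 0.27 in the resistant strain (adjusted p = 1.4e-10). The second of these depends on the pseudocount, because the resistant larvae were at or near 0: with a pseudocount of 0.1 it was 14.89.

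Nplp4 (chr2L:2008414-2009072, plus strand) had the opposite pattern. It was at 1185, 1548 and 1746 FPKM in sensitive and 343.2, 299.4 and 769.6 in resistant larvae, and 6.31, 4.56 and 4.83 in sensitive and 30.4, 16.0 and 38.1 in resistant adults. Larvae were above adults in every library of each strain, and the resistant strain lay between the extremes at both stages. The gene fell by 7.90 ± 0.19 in sensitive adults (adjusted p = 7.238e-09) and by 3.97 ± 0.40 in resistant adults (adjusted p = 2.048e-05). Between strains it was lower in resistant larvae (log2 difference -1.78 ± 0.34, adjusted p = 0.002814) and higher in resistant adults (2.15 ± 0.32, adjusted p = 0.004476).

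Nplp3 also differed between strains in opposite directions at the 2 stages. In adults it was 2.95-fold higher in the resistant strain by mean FPKM (log2 difference 1.53 ± 0.28, adjusted p = 0.008254). In larvae it was lower in the resistant strain by a log2 difference of -1.37 ± 0.37 (adjusted p = 0.01409), a call that rests on low values and was lost without resistant larva replicate 1 (-1.28, adjusted p = 0.0612) or replicate 2 (-1.28, adjusted p = 0.05541), and that could not be tested without any of the sensitive larvae. With a pseudocount of 0.1 the larval difference was -3.44.

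Nplp2 (chr3L:13356376-13357223, plus strand) had resistant larval libraries that differed widely. Sensitive larvae were at 1682, 3455 and 3357 FPKM and sensitive adults at 2283, 2417 and 3115, with overlap. Resistant larvae were at 11.3, 18.4 and 658.0 FPKM, and the highest of these is replicate 3, the library that stood apart on the principal component. Resistant adults were at 1276, 938.6 and 2207 FPKM, above every resistant larva and below every sensitive adult. With all libraries, Nplp2 was not called between resistant larvae and sensitive larvae (log2 difference -5.64 ± 1.79, adjusted p = 0.05276) nor between resistant adults and resistant larvae (4.68 ± 1.72, adjusted p = 0.07853). Without resistant larva replicate 3 both were called, at -7.45 (adjusted p = 9.417e-06) and 6.49 (adjusted p = 1.261e-06).

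Nplp1, the precursor of the NAP and MTYamide peptides, was far lower than its namesakes, at 2.52, 2.02 and 2.73 FPKM in sensitive and 5.15, 3.27 and 5.48 in resistant larvae, and 11.2, 6.18 and 6.25 in sensitive and 9.49, 6.46 and 10.9 in resistant adults. Adults were above larvae of their strain in every library. It rose in sensitive adults (1.33 ± 0.24, adjusted p = 0.001071), and the differences between resistant adults and larvae (0.82 ± 0.27, adjusted p = 0.02318) and between resistant and sensitive larvae (0.70 ± 0.21, adjusted p = 0.01458) were called without scaling alone.

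**Figure D3:**
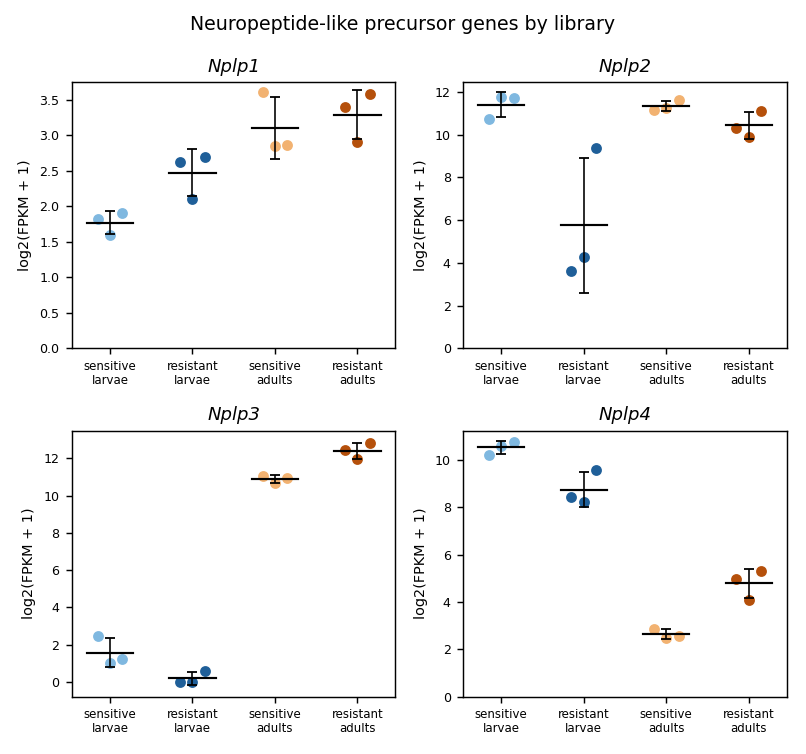
The 4 neuropeptide-like precursor genes in each library, as log2(FPKM + 1); points are libraries, horizontal lines group means and bars the standard deviation (n = 3). Nplp3 is high in adults alone, Nplp4 is high in larvae, and the 3 resistant larval libraries of Nplp2 spread from 11.3 to 658.0 FPKM.

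The 3 precursors of peptides that act on muscle, Ms, FMRFa and Proc, were all called higher in adults of both strains without scaling, as were 28.3% of all genes tested in both, and Ms and FMRFa rose in both strains under both fits. Ms, chr3R:24341551-24343825, encodes myosuppressin, which inhibits contraction of visceral muscle and heart. It was at 2.14, 4.76 and 3.89 FPKM in sensitive and 3.46, 3.47 and 3.64 in resistant larvae, and 14.2, 10.7 and 10.6 in sensitive and 14.3, 12.6 and 13.1 in resistant adults. Its rise was 1.51 ± 0.25 in the sensitive strain (adjusted p = 0.0006441) and 1.66 ± 0.21 in the resistant strain (adjusted p = 5.463e-05), and the 2 strains overlapped at each stage.

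FMRFa, chr2R:9906294-9910457, encodes the FMRFamide peptides, which strengthen contraction at the nerve-muscle junction. Its levels were 0.36, 0.43 and 0.67 FPKM in sensitive and 1.69, 1.23 and 1.63 in resistant larvae, and 2.34, 4.15 and 3.52 in sensitive and 4.04, 3.95 and 3.36 in resistant adults. It rose by 1.53 ± 0.20 in the sensitive strain (adjusted p = 0.0001688) and 0.93 ± 0.20 in the resistant strain (adjusted p = 0.002094). The resistant larvae all lay above the sensitive larvae (0.76 ± 0.18, adjusted p = 0.004849, and 0.04972 with scaling). Since all sensitive larvae were below 1 FPKM, FMRFa entered both comparisons with them only through the other group. With no filter on low values its adjusted p was 0.0002387 for the stage difference in the sensitive strain and 0.003686 between larvae.

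Proc encodes proctolin, which stimulates muscle contraction. It was at 2.24, 2.79 and 2.74 FPKM in sensitive and 4.12, 3.55 and 6.16 in resistant larvae, and 7.89, 6.65 and 4.67 in sensitive and 11.3, 9.65 and 8.83 in resistant adults. The 4 groups did not overlap except for resistant larvae and sensitive adults. In the resistant strain it rose by 0.98 ± 0.25 (adjusted p = 0.005853), and in the sensitive strain the difference of 1.02 ± 0.21 (adjusted p = 0.002106) was called without scaling alone, the adjusted p with scaling being 0.05497.

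Of the 7 precursors of peptides known mainly for behaviour, Pdf rose in adults of both strains and Dsk in sensitive adults. Pdf, chr3R:26455462-26456141, encodes pigment dispersing factor, the transmitter of the clock neurons that times daily activity. It was at 3.09, 1.97 and 3.93 FPKM in sensitive and 2.77, 2.39 and 4.27 in resistant larvae, and 8.29, 8.72 and 8.64 in sensitive and 8.31, 6.53 and 5.02 in resistant adults. Every adult library lay above every larval library. The rise was 1.29 ± 0.21 in the sensitive strain (adjusted p = 0.0006406) and 0.88 ± 0.26 in the resistant strain (adjusted p = 0.01344). The second call was lost without resistant adult replicate 1 (0.73, adjusted p = 0.08196), resistant larva replicate 1 (0.83, adjusted p = 0.05341) or resistant larva replicate 2 (0.75, adjusted p = 0.06084).

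Dsk encodes drosulfakinin, a satiety peptide related to cholecystokinin. It was at 1.09, 1.27 and 0.95 FPKM in sensitive larvae and at 6.58, 7.90 and 6.55 in sensitive adults, a rise of 1.93 ± 0.16 (adjusted p = 1.316e-05). Resistant larvae were at 1.06, 1.83 and 2.28 FPKM and resistant adults at 6.09, 4.35 and 1.28, so that 1 resistant adult library lay among the larvae and the difference of 0.73 ± 0.39 was not called (adjusted p = 0.1426). The difference between the 2 stage differences was not called either (adjusted p = 0.05851).

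SIFa, chr2R:24577566-24578143, encodes SIFamide, made by a few large brain neurons and known for its part in courtship and sleep; an exon of Start1 overlaps it on the opposite strand, so reads of the pair may not be told apart. It was at 4.23, 5.88 and 5.34 FPKM in sensitive and 7.28, 6.46 and 6.60 in resistant larvae, and 3.07, 2.87 and 5.26 in sensitive and 12.9, 14.2 and 9.90 in resistant adults. The resistant adults stood above all 9 other libraries. SIFa was 3.3-fold higher in resistant than in sensitive adults by mean FPKM (log2 difference 1.52 ± 0.26, adjusted p = 0.007118).

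Hug encodes hugin, a pyrokinin of the feeding circuit, and lay between 2.41 and 6.51 FPKM. It was called higher in sensitive adults without scaling alone (0.71 ± 0.17, adjusted p = 0.005921). Crz, the precursor of the stress peptide corazonin, lay between 1.97 and 4.83 FPKM, and its 95% interval for the stage difference ran from -0.39 to 0.41 in the sensitive and from -0.16 to 0.98 in the resistant strain. With scaling it was called lower in sensitive adults, at -0.51.

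Among the 10 precursors made in gut endocrine cells, brain or both, the stage difference depended on strain under both fits for AstCC, CCHa1 and NPF. CCHa2, chr3R:13389059-13395197, encodes CCHamide-2, a nutrient-dependent signal from fat body and gut to the insulin-producing cells. It was at 54.0, 60.8 and 42.7 FPKM in sensitive and 79.4, 70.9 and 86.4 in resistant larvae, and 29.6, 32.3 and 30.3 in sensitive and 75.4, 59.5 and 95.6 in resistant adults. Sensitive adults were below every other library. It fell in sensitive adults (-0.74 ± 0.16, adjusted p = 0.003418) and was 2.5-fold higher by mean FPKM in resistant than in sensitive adults (1.27 ± 0.23, adjusted p = 0.007761). In the resistant strain its stage difference was -0.06, with a 95% interval from -0.57 to 0.46. The difference between the 2 stage differences was called with scaling alone (0.68, adjusted p = 0.07801 without and 1.12, adjusted p = 0.03056 with it).

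CCHa1, chr3R:14092504-14096835, encodes CCHamide-1. It was at 1.92, 1.44 and 1.44 FPKM in sensitive and 4.54, 3.26 and 5.81 in resistant larvae, and 3.25, 3.62 and 2.43 in sensitive and 2.14, 1.78 and 1.76 in resistant adults. The resistant larvae were above the sensitive larvae in all libraries (1.07 ± 0.21, adjusted p = 0.002236), and CCHa1 fell from resistant larvae to resistant adults (-0.91 ± 0.23, adjusted p = 0.005829). In the sensitive strain adults lay above larvae, which was called without scaling alone (0.65 ± 0.18, adjusted p = 0.01106).

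NPF, chr3R:16609220-16611325, encodes neuropeptide F, a relative of vertebrate neuropeptide Y that promotes feeding. Its levels were 2.02, 1.25 and 2.85 FPKM in sensitive and 5.38, 4.65 and 7.33 in resistant larvae, and 6.61, 6.28 and 8.59 in sensitive and 6.16, 5.16 and 4.29 in resistant adults. Sensitive larvae thus lay below the 9 other libraries, which overlapped in part. NPF rose in sensitive adults (1.45 ± 0.23, adjusted p = 0.0005694) and was higher in resistant than in sensitive larvae (1.17 ± 0.23, adjusted p = 0.002519).

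Mip, chr3L:17344947-17349666, encodes myoinhibitory peptides, which act on the receptor SPR. It was at 8.40, 2.55 and 3.23 FPKM in sensitive and 10.1, 12.2 and 11.1 in resistant larvae, and 2.39, 2.37 and 2.87 in sensitive and 3.22, 3.28 and 2.63 in resistant adults. Resistant larvae were above all other libraries, and sensitive larva replicate 1 came next. Mip fell in resistant adults (-1.59 ± 0.22, adjusted p = 9.601e-05). The strain difference in larvae (1.22 ± 0.33, adjusted p = 0.01355) was called without scaling alone.

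AstCC, chr2L:11083459-11085229, encodes allatostatin double C and lies beside its relative AstC. AstCC was at 0.74, 0.76 and 0.76 FPKM in sensitive and 1.16, 1.23 and 1.74 in resistant larvae, and 0.52, 0.36 and 0.37 in sensitive and 3.51, 2.31 and 2.74 in resistant adults. No 2 groups overlapped. It was higher in resistant than in sensitive adults (1.43 ± 0.18, adjusted p = 0.002586), and its stage difference in the resistant strain (0.69 ± 0.20, adjusted p = 0.01442) was called without scaling alone. All sensitive adults being below 1 FPKM, AstCC entered the adult comparison only through the resistant libraries, and with no filter its adjusted p was 0.002963. Sensitive larvae were below 1 FPKM too, so AstCC entered the test of strain dependence only through the resistant strain. AstC, the precursor of the inhibitory peptide allatostatin C, lay between 2.83 and 8.66 FPKM and was called in sensitive adults without scaling alone (0.75 ± 0.21, adjusted p = 0.01221).

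Orcokinin, whose peptides occur in gut endocrine cells and the nervous system, was at 5.73, 8.87 and 9.45 FPKM in sensitive and 10.4, 11.9 and 11.2 in resistant larvae, and 21.2, 22.3 and 27.3 in sensitive and 19.9, 19.1 and 17.4 in resistant adults. No 2 groups overlapped, and both adult groups were above both larval groups. It rose in the sensitive strain (1.47 ± 0.20, adjusted p = 0.0002345), and in the resistant strain it was called without scaling alone (0.70 ± 0.21, adjusted p = 0.01615).

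AstA encodes allatostatin A, which inhibits feeding. It was at 10.8, 9.43 and 7.14 FPKM in sensitive and 12.9, 13.3 and 13.7 in resistant larvae, and 10.8, 8.25 and 7.84 in sensitive and 10.8, 10.2 and 9.61 in resistant adults. Resistant larvae were the highest group, a difference from sensitive larvae called without scaling alone (0.51 ± 0.18, adjusted p = 0.02842) and of -0.01 with it. The precursor of short neuropeptide F, sNPF, was at 0.69, 1.23 and 1.02 FPKM in sensitive and 1.81, 1.45 and 2.78 in resistant larvae, and 3.01, 1.95 and 1.55 in sensitive and 2.98, 2.17 and 3.28 in resistant adults. Sensitive larvae were the lowest group in all 3 libraries, and its calls in sensitive adults (0.66 ± 0.21, adjusted p = 0.01943) and resistant larvae (0.59 ± 0.21, adjusted p = 0.03195) held without scaling alone. Tk, the tachykinin precursor, lay between 2.66 and 7.10 FPKM. It was called higher in sensitive adults without scaling alone (0.54 ± 0.18, adjusted p = 0.02675), a call lost without sensitive larva replicate 1, 2 or 3. With scaling alone it was called lower in resistant than in sensitive larvae (-0.56, adjusted p = 0.03544).

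Of the 5 precursors of peptides that act on the Malpighian tubules or on water balance, ITP and Dh44 differed between strains in larvae. ITP, chr2R:24537421-24558961, encodes ion transport peptide, an antidiuretic hormone; an exon of CG4622 overlaps it on the opposite strand. It was at 4.94, 5.43 and 5.20 FPKM in sensitive and 23.5, 10.4 and 19.1 in resistant larvae, and 7.06, 4.80 and 4.52 in sensitive and 5.77, 3.41 and 6.47 in resistant adults. The 3 resistant larval libraries were above all 9 others. ITP was 3.4-fold higher in resistant than in sensitive larvae by mean FPKM (1.52 ± 0.25, adjusted p = 0.001347), and it fell in resistant adults (-1.55 ± 0.32, adjusted p = 0.001924).

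Dh44, chr3R:9638182-9650706, encodes a diuretic hormone related to corticotropin-releasing factor. It was at 0.90, 0.65 and 1.41 FPKM in sensitive and 2.77, 2.23 and 3.41 in resistant larvae, and 1.03, 0.96 and 0.97 in sensitive and 1.21, 1.12 and 1.24 in resistant adults. Again the resistant larvae were above all other libraries. Dh44 was higher in resistant than in sensitive larvae (0.94 ± 0.20, adjusted p = 0.003572) and fell in resistant adults (-0.79 ± 0.19, adjusted p = 0.005183).

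Lk and Capa encode leucokinin and the Capa peptides, hormones that control fluid secretion by the tubules. Lk was at 7.86, 8.33 and 9.45 FPKM in sensitive and 7.15, 10.3 and 9.05 in resistant larvae, and 14.4, 22.4 and 23.5 in sensitive and 20.5, 18.8 and 15.1 in resistant adults. Capa was at 6.66, 7.97 and 8.84, at 9.47, 8.75 and 7.48, at 13.8, 21.4 and 22.1 and at 18.0, 15.6 and 10.3 FPKM in the same order. For each gene all adult libraries were above all larval libraries, and the 2 strains overlapped at each stage.

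Lk rose in the resistant strain (0.96 ± 0.24, adjusted p = 0.005243), and an antisense RNA, CR44843, overlaps it. Its stage difference in the sensitive strain (1.12 ± 0.20, adjusted p = 0.001095) and those of Capa in the sensitive (1.17 ± 0.21, adjusted p = 0.001003) and resistant strain (0.68 ± 0.25, adjusted p = 0.04239) were called without scaling alone. Dh31, a diuretic hormone related to calcitonin gene-related peptide, was at 3.49, 2.76 and 1.94 FPKM in sensitive and 4.77, 3.81 and 8.74 in resistant larvae, and 3.92, 3.08 and 3.83 in sensitive and 5.64, 3.95 and 4.05 in resistant adults. The resistant strain was above the sensitive strain in all libraries of each stage, a difference called in larvae without scaling alone (0.82 ± 0.27, adjusted p = 0.02615).

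Akh, chr3L:4141467-4142070, encodes adipokinetic hormone, which the corpora cardiaca release to mobilise stored fat and sugar. It was at 5.14, 5.08 and 2.70 FPKM in sensitive and 8.27, 9.91 and 9.06 in resistant larvae, and 14.7, 15.7 and 19.1 in sensitive and 9.83, 9.79 and 9.70 in resistant adults. Sensitive larvae were the lowest group and sensitive adults the highest, with both resistant groups between them. It rose in sensitive adults (1.75 ± 0.23, adjusted p = 0.0001749), while the difference in the resistant strain was 0.10 with a 95% interval from -0.37 to 0.57. In larvae the strain difference was called without scaling alone (0.96 ± 0.22, adjusted p = 0.004378).

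In adults Akh was lower in the resistant strain (-0.69 ± 0.21, adjusted p = 0.04822, and 0.03293 with scaling). That call was lost without sensitive adult replicate 2 (-0.72, adjusted p = 0.1493) or 3 (-0.59, adjusted p = 0.2549), without resistant adult replicate 1 (-0.70, adjusted p = 0.1919), 2 (-0.69, adjusted p = 0.0884) or 3 (-0.69, adjusted p = 0.05565), and with no filter on low values (adjusted p = 0.05382). Gpa2 and Gpb5, which encode the subunits of the glycoprotein hormone thyrostimulin, were between 0.43 and 1.98 FPKM and between 1.57 and 5.07 FPKM. Neither was called in any comparison without or with scaling, and their levels overlapped between strains at each stage.

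Of the 6 hormones of moulting and eclosion, Eh and ETH were higher in resistant than in sensitive adults, and so were Burs and Pburs, which could be tested only because they are high in resistant adults. Over all genes 15.9% were called higher in resistant adults without scaling and 10.6% under both fits, and given how Burs and Pburs entered the test nothing is read from the count. Burs (chr3R:21769518-21770279) and Pburs (chr2L:14416729-14417331) encode the subunits of bursicon, the hormone that tans the new cuticle and drives wing expansion after eclosion.

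Burs was at 0.97, 0.27 and 0.69 FPKM in sensitive adults and at 3.49, 3.27 and 2.68 in resistant adults. In larvae it was at 0.55, 1.12 and 1.26 FPKM in the sensitive and 0.94, 0.94 and 1.07 in the resistant strain. Pburs was at 0.33, 0.00 and 0.00 FPKM in sensitive adults and at 2.93, 2.36 and 1.5 in resistant adults, which is 0 to 2.0 and 8.7 to 17.1 estimated reads. For both subunits the resistant adults were above all 9 other libraries.

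In larvae Pburs was at 0.16, 0.67 and 0.00 FPKM in the sensitive and 0.64, 0.32 and 0.95 in the resistant strain. Between adults of the 2 strains the log2 difference was 1.35 ± 0.21 for Burs (adjusted p = 0.005341) and 1.54 ± 0.22 for Pburs (adjusted p = 0.003619). From larva to adult of the resistant strain, Burs rose by 1.06 ± 0.18 (adjusted p = 0.0005581) and Pburs by 0.99 ± 0.22 (adjusted p = 0.003184). Both genes passed the filter in adults through the 3 resistant libraries alone, and without any of these they could not be tested. The same holds for Pburs in the stage comparison. With no filter the adjusted p between adults was 0.007744 for Burs and 0.004481 for Pburs.

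Eh, chr3R:17446642-17448858, encodes eclosion hormone, and ETH, chr2R:24794670-24795482, encodes ecdysis triggering hormone, made by the Inka cells; the 2 act on each other's release to start the shedding of the cuticle. Eh was at 1.37, 1.53 and 1.77 FPKM in sensitive and 1.22, 1.82 and 1.57 in resistant larvae, and 1.38, 0.49 and 0.38 in sensitive and 3.15, 2.33 and 2.67 in resistant adults. ETH, which an antisense RNA, CR43257, overlaps, was at 4.38, 3.42 and 5.99, at 5.30, 6.32 and 6.07, at 4.18, 3.68 and 3.93 and at 9.15, 10.03 and 8.40 FPKM in the same order. Resistant adults were again above all 9 other libraries for both genes, while the larvae of the 2 strains overlapped.

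In resistant against sensitive adults, the log2 difference was 1.12 ± 0.23 for Eh (adjusted p = 0.01193) and 1.05 ± 0.20 for ETH (adjusted p = 0.009804). Without resistant adult replicate 1 these were 1.04 (adjusted p = 0.05736) and 1.05 (adjusted p = 0.0561) and no longer called. Eh fell in adults of the sensitive strain (-0.59 ± 0.22, adjusted p = 0.03988). That call was lost without sensitive larva replicate 1 (-0.64, adjusted p = 0.06492), 2 (-0.59, adjusted p = 0.09416) or 3 (-0.53, adjusted p = 0.1186) and without sensitive adult replicate 2 (-0.49, adjusted p = 0.1248) or 3 (-0.44, adjusted p = 0.1435). In the resistant strain the stage differences of Eh (0.55 ± 0.20, adjusted p = 0.03458) and ETH (0.56 ± 0.22, adjusted p = 0.04707) were called without scaling alone.

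Ptth, chr2L:575711-576896, encodes prothoracicotropic hormone, which prompts the ecdysone pulse that starts metamorphosis; an exon of the gene cold overlaps it on the opposite strand. It was at 0.56, 1.0 and 0.63 FPKM in sensitive and 1.68, 1.91 and 1.62 in resistant larvae, and 0.51, 0.67 and 1.44 in sensitive and 0.75, 0.61 and 0.41 in resistant adults. Resistant larvae were the highest group, above all other libraries. It fell in resistant adults (-0.79 ± 0.17, adjusted p = 0.002408), and the strain difference in larvae was called without scaling alone (0.67 ± 0.18, adjusted p = 0.008742). Ptth entered the stage comparison only through the resistant larvae, all resistant adults being below 1 FPKM, and with no filter its adjusted p there was 0.00185. CCAP, crustacean cardioactive peptide of the ecdysis motor programme, lay between 0.21 and 2.46 FPKM and was not called wherever it could be tested; it overlaps CG6972 on the opposite strand.

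**Figure D4:**
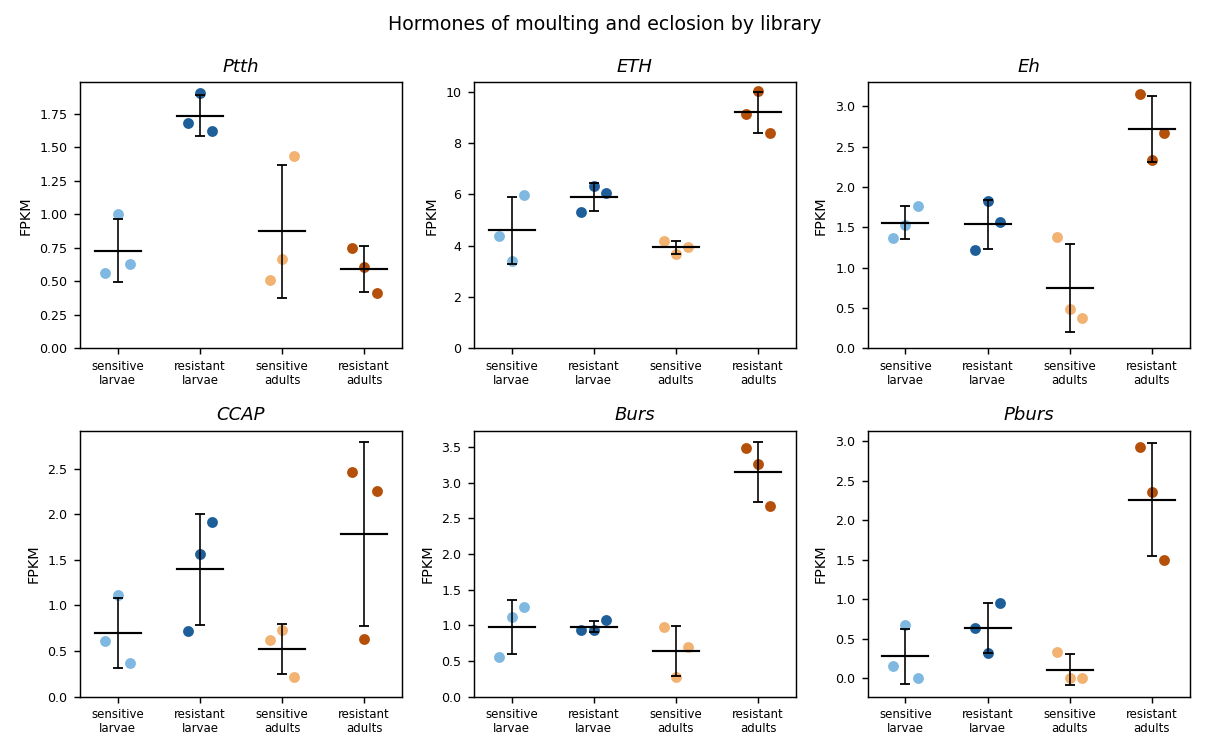
The 6 hormones of moulting and eclosion in each library, in FPKM on linear axes; points are libraries, horizontal lines group means and bars the standard deviation (n = 3). Resistant adults lie above every other library for ETH, Eh, Burs and Pburs, and resistant larvae do so for Ptth.

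Whether a stage difference depended on strain was tested directly, as the stage difference in the resistant strain minus that in the sensitive strain. Of 36 precursors tested, 7 were called with a larger value in the resistant strain and 6 with a smaller value, where 9.98% and 19.7% of all genes were and the median gene stood at -0.30. Under both fits the 7 larger were Nplp4 (3.93 ± 0.49), Nplp3 (2.91 ± 0.46), Burs (1.33 ± 0.28), Pburs (1.17 ± 0.32), SIFa (1.17 ± 0.31), Eh (1.14 ± 0.29) and AstCC (1.0 ± 0.23), and over all genes 9.61% were. Their adjusted p ranged from 0.0001569 for Nplp4 to 0.01688 for Pburs. For Nplp4 a larger value means a smaller fall. The 4 smaller under both fits, against 7.8% of all genes, were Akh (-1.65 ± 0.30), ITP (-1.59 ± 0.40), NPF (-1.57 ± 0.33) and CCHa1 (-1.56 ± 0.28), with adjusted p from 0.00186 for CCHa1 to 0.01103 for ITP. None of these 11 calls was lost when any 1 library was left out and the gene could still be tested. AstCC, below 1 FPKM in all sensitive libraries, passed the filter through the resistant strain alone, and with no filter its adjusted p was 0.00558. Pburs passed it through the resistant adults alone, so the count of 7 is a description. The call of Pburs was lost with a pseudocount of 0.1. With that pseudocount the value of Nplp3 was 4.97.

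The strain comparison at each stage shares its libraries with the stage comparisons, so the values stand side by side and not as separate evidence. In larvae 35 precursors were tested, and 14 were called higher in the resistant strain without scaling and 2 lower, where 48.8% and 9.84% of all genes were. Under both fits 5 were higher, CCHa1, Dh44, FMRFa, ITP and NPF, and 2 lower, Nplp3 and Nplp4, against 11.0% and 9.82%. Of these, FMRFa and Nplp3 could be tested only through the strain in which they are higher. In adults 34 were tested, and 9 were higher and 1 lower under both fits, where 10.6% and 3.75% of all genes were, and 15.9% and 3.95% without scaling. The 9 were AstCC, Burs, Pburs, CCHa2, Eh, ETH, Nplp3, Nplp4 and SIFa, and the 1 was Akh. AstCC, Burs and Pburs are among the 9 only because they passed the filter in the resistant adults. Without resistant adult replicate 1 the count of 9 became 4, since Eh and ETH lost the call and AstCC, Burs and Pburs could no longer be tested. Without resistant adult replicate 2 or 3 it was 6. Nplp3 and Nplp4 were the precursors called at both stages under both fits, each lower in resistant larvae and higher in resistant adults.

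**Figure D5:**
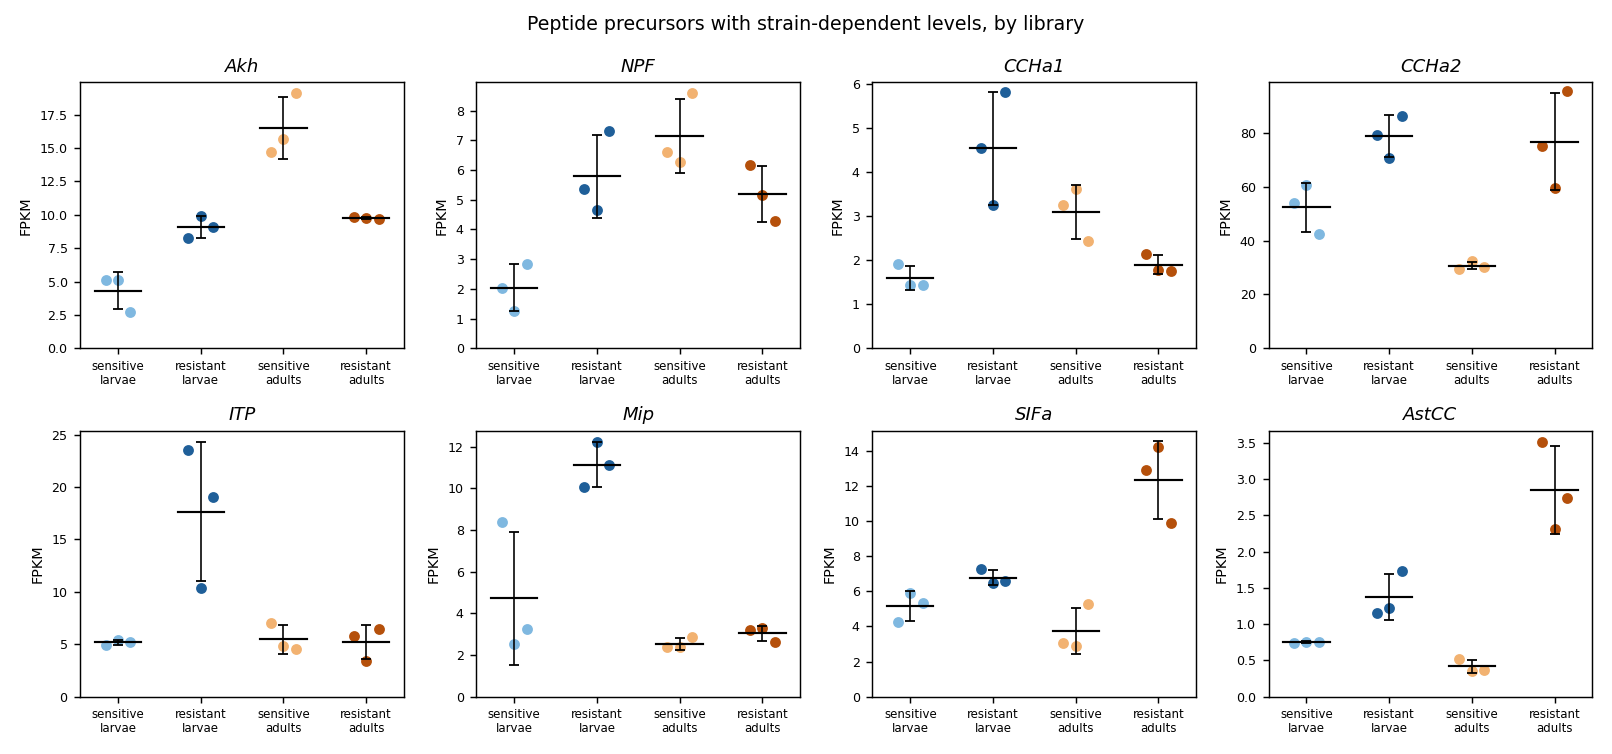
Akh, NPF, CCHa1, CCHa2, ITP, Mip, SIFa and AstCC in each library, in FPKM on linear axes; points are libraries, horizontal lines group means and bars the standard deviation (n = 3). Resistant larvae are highest for ITP and Mip, resistant adults for SIFa and AstCC, and sensitive adults are lowest for CCHa2 and highest for Akh.

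Of 35 receptor genes, 12 stayed below 1 FPKM in every library and 15 could be tested in the sensitive and 19 in the resistant strain. In the sensitive strain 6 rose in adults and 4 fell under both fits, where 29.0% and 13.2% of all genes did, and in the resistant strain 7 rose and 6 fell, where 28.3% and 17.4% did. ETHR, Lkr, MsR2, PK1-R, PK2-R2, SPR and tor in the sensitive strain, and CapaR, Lkr, MsR2, PK1-R, PK2-R2, rk and tor in the resistant strain, could be tested only through the stage at which they are high, so nothing is read from these counts. The medians of the log2 difference were 0.39 and 0.05. Among receptors tested only through adults, tor, the receptor of the Ptth hormone that is also known for patterning the early embryo, had means of 0.16 FPKM in sensitive and 0.25 in resistant larvae, and 9.14 in sensitive and 7.67 in resistant adults. The myosuppressin receptor MsR2 had means of 0.16, 0.37, 1.91 and 2.36 FPKM in that order, and the pyrokinin receptor PK1-R 0.20, 0.25, 2.16 and 3.44.

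SPR, the receptor of sex peptide and of the Mip peptides, had means of 0.30, 0.94, 3.98 and 4.0 FPKM in the same order. It rose in the resistant strain, and in the sensitive strain it was tested only through the adults. CrzR, the corazonin receptor, rose in both strains, at means of 1.98, 1.71, 6.01 and 6.80. ETHR, the receptor of ecdysis triggering hormone, had means of 3.19 and 3.63 FPKM in sensitive and resistant larvae and 0.39 and 0.88 in sensitive and resistant adults. It fell in the resistant strain (log2 difference -1.30 ± 0.22, adjusted p = 0.0004221). In the sensitive strain the log2 difference was -1.60 ± 0.16, but ETHR was tested there only through the larvae, so its p-value is not used. The bursicon receptor gene rk had means of 1.33, 3.24, 0.24 and 0.30 FPKM (larvae of the sensitive and the resistant strain, then adults of each). Its log2 difference in the resistant strain was -1.67 ± 0.21, again tested only through the larvae. The means of both receptors were thus lower in adults than in larvae of each strain.

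Between strains, AkhR, the receptor of adipokinetic hormone, was lower in resistant larvae (means 11.5 against 19.1 FPKM, -0.68 ± 0.19, adjusted p = 0.01109) and in resistant adults (7.29 against 14.97, -0.99 ± 0.26, adjusted p = 0.02521). The adult call was lost without sensitive adult replicate 1, 2 or 3 or resistant adult replicate 1 or 2, at adjusted p up to 0.1312. PK2-R2, a receptor of hugin peptides, was higher in resistant larvae (7.70 against 1.5, 1.79 ± 0.21, adjusted p = 0.0003404) and its stage difference was more negative in the resistant strain (-1.69 ± 0.27, adjusted p = 0.0008193). Pdfr, the receptor of pigment dispersing factor, was lower in resistant larvae (1.56 against 2.91, -0.59 ± 0.23, adjusted p = 0.04337), a call lost without sensitive larva replicate 2 or 3 or resistant larva replicate 1 or 2, at adjusted p up to 0.1756. No other receptor was called between strains under both fits, so that in larvae 1 of 14 tested was higher and 2 were lower, where 11.0% and 9.82% of all genes were, and in adults 0 of 14 were higher and 1 was lower, where 10.6% and 3.75% were.

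Among 8 genes of precursor processing, 3 rose and 1 fell in sensitive adults under both fits, where 29.0% and 13.2% of all genes did. In resistant adults 2 rose and 1 fell, where 28.3% and 17.4% did. Those that rose in both strains were 7B2, a helper of the prohormone convertase encoded by amon, and Fur2, a furin protease. The level of 7B2 averaged 14.4 FPKM in sensitive and 21.3 in resistant larvae, and 55.6 in sensitive and 60.0 in resistant adults. The gene amon itself averaged 1.07, 2.30, 2.98 and 2.61 FPKM, and its stage difference was called in the sensitive strain without scaling alone. Of 6 genes of dense-core vesicles and their release, 3 could be tested and none was called under both fits in any comparison. Over all genes 3.75 to 29.0% were, by comparison and direction, so with 3 genes nothing is read from this. Without scaling 2 were called higher in sensitive adults and 3 in resistant larvae, where 55.7% and 48.8% of all genes were. The vesicle protein IA-2 was the highest of the 6, at means of 3.42, 7.62, 8.15 and 12.7 FPKM.

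Of 6 peptidases that break down peptides, 5 were tested between larvae, and 3 (Nep2, Nep3 and Nep4, neprilysins) were higher in resistant larvae under both fits, where 11.0% of all genes were. Nep3 averaged 2.07 FPKM in sensitive larvae and 7.64 in resistant larvae (1.49 ± 0.17, adjusted p = 0.0003194). Ance, an angiotensin-converting enzyme homologue, averaged 150.2, 276.0, 168.1 and 78.5 FPKM in the same order as above. It was lower in resistant than in sensitive adults (-1.13 ± 0.26, adjusted p = 0.01605), a call lost without sensitive adult replicate 2 or 3 or resistant adult replicate 1, at adjusted p up to 0.07813. The stage difference of 4 of the 5, Nep1, Nep2, Nep3 and Ance, was smaller or more negative in the resistant strain under both fits. Over all genes 7.8% were, and the median gene stood at -0.30 without scaling.

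Markers of several tissues moved with stage and strain beside the precursors. The summed level of 6 fat body genes, of which none was at 0 in all libraries of a group, ran from 28238 to 40258 FPKM in sensitive and 21316 to 30454 in resistant larvae, and 101.7 to 121.1 in sensitive and 224.1 to 289.2 in resistant adults. In resistant adults 4 of the 6 were higher than in sensitive adults under both fits, where 10.6% of all genes were. In resistant larvae 4 of the 6 were lower than in sensitive larvae and 0 higher, where 9.82% and 11.0% of all genes were. Since Lsp1alpha, Lsp1beta, Lsp1gamma and Lsp2 are larval serum protein genes, the sum does not measure fat body content across stages. The apolpp gene, not among the 4 higher in resistant adults, averaged 208.2 FPKM in sensitive and 58.6 in resistant larvae, and 27.5 in sensitive and 24.2 in resistant adults. Among neuronal markers 4 of 13 tested were higher in resistant adults under both fits and none was lower, where 10.6% and 3.75% of all genes were. One of the 13, VAChT, was at 0.92, 0.58 and 0.52 FPKM in sensitive adults. It could be tested only through the resistant adults, so nothing is read from this count. Each of the 4 calls was lost in some fit without 1 library. The neuronal sum ran from 58.9 to 94.2 FPKM in sensitive and 84.5 to 135.8 in resistant adults. Summed midgut markers, 8 genes, ran from 10464 to 13775 FPKM in sensitive adults and 4577 to 8751 in resistant adults. Of the 8, 3 were lower in resistant adults, where 3.75% of all genes were.

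Testis markers, 7 genes, summed to between 122.0 and 144.9 FPKM in sensitive and 263.8 and 301.2 in resistant adults. Of 6 tested, 3 were higher, where 10.6% of all genes were. The 8 genes listed for the female germline summed to between 6966 and 8346 and between 4789 and 5271 FPKM, with 1 lower, against 3.75% of all genes. The yolk protein gene Yp1 had the highest mean of these in both groups, 5433 FPKM in sensitive and 2606 in resistant adults. The means of vas, osk, gus and Vm26Aa were larger in resistant adults, and those of nos, bam and Cp36 smaller. Glial markers, 7 genes, summed to between 212.9 and 261.8 FPKM in sensitive and 489.1 and 809.0 in resistant larvae, and 309.5 and 464.7 in sensitive and 295.7 and 626.0 in resistant adults. Of the 7, 1 was higher in resistant larvae, where 11.0% of all genes were. In resistant larvae 1 of the genes listed for the female germline, Yp1, was at 0 in all libraries, and no testis, midgut or glial marker was at 0 throughout a group. The part of these shifts in the precursor differences was not tested.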

How the data were processed

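Total RNA, taken up in TRIzol, was read on the BGISEQ-500 platform according to the labels. Tools listed in the submitters' processing notes, with no role or setting, are RSEM 1.3.3, STAR, edgeR 3.12 and FastQC 0.11.9, with the dm6 build; whether counting used strand is not stated there. The authors deposited FPKM values with 2 decimals. These carry no count test, so limma 3.58.1 (R 4.3.3) was fitted to log2(FPKM + 1) with trended, robust variance moderation, two-sided, after a filter of 1 FPKM in at least 3 libraries. Fold changes on that scale understate those of low genes. Each comparison used its own 6 libraries, and the strain dependence of the stage difference used all 12. Low values of genes with 1 transcript lay within 0.2 of a whole read in 87.1 to 95.6% of cases, which gave the estimated reads. The read number of each library was the one with the largest such share. The 40% expected by chance holds for a fixed read number and is no test of it. Coordinates are from a dm6 annotation; the table holds an older identifier of Nplp2, and Gpa2 lies on an unmapped scaffold. Of 14001 genes, 256 share all values with another gene, none of them a precursor. The fit was also run on simulated data with few changed genes and no shift of the typical gene. These data differ in both respects, so that run does not show how the fit behaves here. Replicate libraries differed by more than sampling noise (chi-square per degree of freedom 7.39 to 102.9).

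All 38 genes are accounted for. Values in every library are given for those called in both strains, in the test of strain dependence or between strains, or at 10 FPKM or more in a group mean, and ranges for most others. The members and gene lists were chosen with earlier results of these data known, and of the other lists some genes were named after their values were seen. Alternatives were a pseudocount of 0.1, no filter, median-of-ratios scaling, the replicate number as a block, each library left out, and 1 fit of all 12 libraries.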

Additional observations from a re-analysis of the deposited data

Results flagged for a closer look

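For 13 of 36 precursors tested the stage difference differed between the strains by a test of the difference itself, as the log2 difference between adult and larva in the resistant strain minus that in the sensitive strain (limma, adjusted p below 0.05). Larger values were called for 7 and smaller for 6, where 9.98% and 19.7% of all genes tested were and the median gene stood at -0.30. The stage difference was larger in the resistant strain for Nplp4 (3.93), Nplp3 (2.91), Burs (1.33), Pburs (1.17), SIFa (1.17), Eh (1.14) and AstCC (1.0). It was smaller for Akh (-1.65), ITP (-1.59), NPF (-1.57), CCHa1 (-1.56), Ptth (-0.88) and Dh44 (-0.80). With scaling, Ptth (-0.65, adjusted p = 0.09839) and Dh44 (-0.56, adjusted p = 0.1304) were no longer called, and CCHa2 (1.12, adjusted p = 0.03056) and ETH (1.07, adjusted p = 0.01485) were. The call of Ptth was also lost without sensitive larva replicate 1 or 3, sensitive adult replicate 3 or resistant adult replicate 3, at adjusted p up to 0.06443. That of Dh44 was lost without sensitive larva replicate 1 or 2, resistant larva replicate 1 or 3 or resistant adult replicate 1, at adjusted p up to 0.06655. With a pseudocount of 0.1 Pburs, listed at 0.00 FPKM in 3 libraries, was not called. AstCC entered this test only through the resistant strain and Pburs only through the resistant adults, so the counts are descriptions.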

How the results depend on the processing

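With median-of-ratios scaling, 9 precursors were called higher and 9 lower in sensitive adults (17 and 3 without), 8 higher in resistant adults (15 without), and 5 higher in resistant larvae (14 without), where 3342 genes were called in place of 6484. Among precursors called in either fit, the sign turned with scaling for Crz (-0.51), ITP (-0.53) and Tk (-0.02) in the sensitive stage comparison and for AstA in larvae (-0.01); signs of precursors called in neither fit turned as well. With 1 library left out, the sign of a small uncalled stage difference in the sensitive strain turned in some fits, over ranges of -0.17 to 0.10 for AstA, -0.11 to 0.08 for Crz, -0.32 to 0.01 for ETH, -0.13 to 0.14 for ITP and -0.40 to 0.12 for Nplp2. Leaving out each library gave 5 to 13 precursors called higher in resistant adults against larvae, 8 to 12 higher and 1 to 3 lower in resistant larvae, and 4 to 9 higher and 0 to 1 lower in resistant adults against sensitive adults. Over all genes it gave 2117 to 4730 calls of strain dependence (3640 with all libraries) and 497 to 2282 calls between adults (2309), the lowest without resistant adult replicate 1, with 951 and 1225 without sensitive adult replicate 3 and 2. The 5 was without resistant adult replicate 1 and the 8 without resistant larva replicate 3. Of the precursors called without scaling, 5 of 20 lost the call in at least 1 such fit in the sensitive stage comparison, 8 of 21 in the resistant, 2 of 13 for strain dependence, 8 of 16 in larvae and 3 of 10 in adults. The pseudocount of 0.1 lost Pburs and gained FMRFa for strain dependence and changed no other precursor's call. With no filter, 0 precursors were called lower in resistant than in sensitive adults (limma), Akh being at an adjusted p of 0.05382, and AstCC and Nplp2 gained calls. In 1 fit of all 12 libraries AstCC and Nplp2 gained calls and no precursor lost its call. Precursors called neither without nor with scaling are given no direction, Nplp2 excepted.

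Replicate numbers did not pair the libraries: deviations from group means of same-numbered larvae and adults correlated at -0.0832, -0.262 and 0.164 in the sensitive and -0.2, 0.163 and 0.112 in the resistant strain. With the replicate block, 2 precursors were lower in resistant adults, Dsk and Nplp2, where Akh had been. Eh and ETH lost their stage calls in the resistant strain and Dh31 its call in larvae, so 13 precursors were called higher in resistant adults against larvae and 13 in resistant larvae. The cause of these changes was not tested. Depth limits what can be said of amn, RYa, Pburs and other genes of a few reads a library.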
